A study of Danio rerio with 6 samples.

Results

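The genes described here make the protein-degrading and acidifying machinery of the lysosome: the cathepsins, and the subunits of the vacuolar proton pump (V-ATPase) with its accessory proteins. Members were taken by gene symbol, as every gene whose symbol begins with cts and a letter (15 cathepsin genes) or with atp6v or atp6ap (26 pump genes), which gave 41 of the 23745 genes in the table. RNA was taken from 2000 fluorescent hepatocytes per sample, sorted from zebrafish larvae aged 6 days. The 3 lcat OE samples came from larvae with a transgene in which the promoter of fabp10a, a gene of hepatocytes, drives lcat joined through T2A to mCherry, together with a green fabp10a:eGFP reporter. The 3 CTL samples came from larvae with the fabp10a:eGFP reporter alone. The product of lcat, lecithin-cholesterol acyltransferase, is secreted by the liver and esterifies cholesterol on lipoproteins. CTL larvae lack mCherry, so lcat cannot be told apart from mCherry or from other differences between the fish lines. Whether replicates are separate clutches or sorts is not stated, so the p-values reflect differences among these libraries, which could be technical in origin.

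Cathepsins are proteases that work mainly in the acid lumen of the lysosome. Most are cysteine proteases, cathepsin D is an aspartic protease and cathepsin A a serine carboxypeptidase. The V-ATPase makes the lumen acid: its cytosolic V1 sector hydrolyses ATP, and its membrane V0 sector carries protons across through a ring of c subunits facing the a subunit. In hepatocytes lysosomes also receive lipid droplets and lipoproteins taken up from outside, and transcription factors of the MiT/TFE family raise lysosomal genes together.

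The libraries held 23336591 to 24890856 counts. CPM values are counts scaled to library size with TMM factors, and TPM values, which also divide by transcript length, are used to compare levels between genes. The lcat gene had 3255, 2610 and 1958 CPM in lcat OE, against 148.7, 119.9 and 144.1 CPM in CTL, a sum over transgenic and native transcripts. Of 20 hepatocyte markers 2 were higher and 1 lower in lcat OE by edgeR, and their summed level was 300820 to 357860 CPM in lcat OE and 250465 to 280515 CPM in CTL. Groups were compared with edgeR's quasi-likelihood F test, two-sided, with Benjamini-Hochberg adjustment over all 14096 genes tested and a threshold of 0.05. This called 32.6% of all genes tested, 16.3% as higher and 16.3% as lower in lcat OE. In bulk samples, fewer cells of a type and less RNA per cell cannot be told apart.

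Among the cathepsins, the most abundant member fell and several scarce ones rose. The cathepsin L gene ctsla, the most abundant cathepsin in both groups, fell 2.19-fold in lcat OE, and the cathepsin F gene ctsf fell as well. The genes ctss2.1 and ctss2.2 (cathepsin S), ctsl.1 (a second cathepsin L gene), ctsc (cathepsin C) and ctsk (cathepsin K) rose. Of 15 cathepsin genes 13 passed the filter on low counts, and of these 5 rose and 2 fell, or 53.8%, beside 32.6% of all genes tested. These 13 include ctss2.1, which passed the filter through the lcat OE libraries alone. In CPM, 6 of the 13 stood above and 3 below in every lcat OE library; over all genes tested, 47.7% did not overlap, 23.6% above and 24.1% below. In TPM, 4 stood above and 6 below, while over all genes tested 47.1% did not overlap, 14% above and 33.1% below. Their median log2 fold change was 0.01, beside -0.02 over all genes tested, and it turned negative with library totals and on TPM. On deposited TPM with limma the split was 3 higher and 3 lower.

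The fall of ctsla was seen in every library. The gene encodes a cysteine endopeptidase that breaks down bulk protein in lysosomes. It had 137, 142 and 187 CPM in lcat OE, against 334, 357 and 327 CPM in CTL. Even the highest lcat OE library stood below the lowest CTL library. This is a log2 fold change of -1.13 (SE 0.13, edgeR adjusted p = 0.000184), and with all 14 alternatives it stayed between -1.33 and -1.03, past the threshold each time. On the TPM scale ctsla stood at 99.5 ± 7.5 in lcat OE and 249.8 ± 20.1 in CTL (SD, n = 3 each).

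The summed level of the family was lower in every lcat OE library, and the difference lay mostly in ctsla. The 15 cathepsin genes summed to 259, 243 and 261 TPM in lcat OE, against 401, 445 and 390 TPM in CTL, a ratio of the group means of 0.618. Without ctsla the sums were 163, 149 and 153 TPM in lcat OE and 166, 172 and 148 TPM in CTL, and the groups overlapped. The share of cathepsin TPM that ctsla held was 39.1% ± 2.13 in lcat OE and 60.6% ± 1.76 in CTL (SD, n = 3 each).

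**Figure D1:**
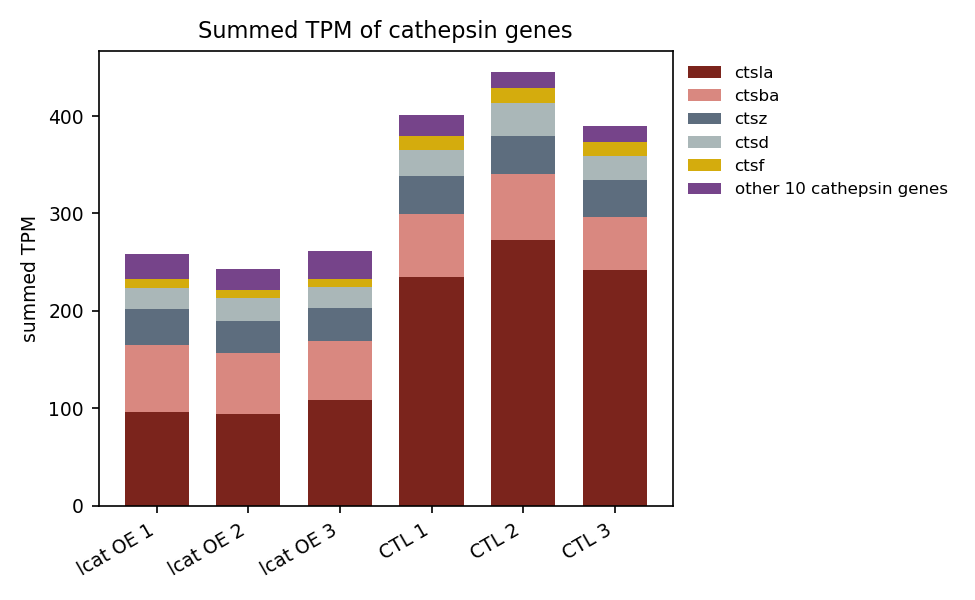
Summed TPM of the 15 cathepsin genes in each library, the lcat OE libraries left of the CTL libraries; bar segments are ctsla, ctsba, ctsz, ctsd, ctsf and the remaining 10 genes together. The ctsla segment is shorter in all 3 lcat OE libraries, and the rest of the bar sums to 149 to 163 TPM in lcat OE and 148 to 172 TPM in CTL.

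Of the other abundant cathepsins only ctsf passed the test, and the picture for the rest depended on the scale. The gene ctsf, a cysteine protease gene, had 22.4, 19.1 and 23 CPM in lcat OE, against 33.0, 33.6 and 29.6 CPM in CTL, with no overlap. Its log2 fold change was -0.58 (SE 0.12, edgeR adjusted p = 0.00408), past the threshold with all 14 alternatives. The cathepsin B gene ctsba, another lysosomal cysteine protease, had 102, 96.1 and 109 CPM in lcat OE and 94.5, 92 and 76.4 CPM in CTL. These values did not overlap in CPM, though they did in TPM, and the difference missed the threshold (log2 fold change 0.22, SE 0.12, edgeR adjusted p = 0.18).

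The cathepsin Z gene ctsz, which encodes a carboxypeptidase, had 51.1, 47.9 and 56.6 CPM in lcat OE and 53.8, 50.5 and 50.2 CPM in CTL. In CPM the groups overlapped (log2 fold change 0.01, SE 0.11, edgeR adjusted p = 0.957). The aspartic protease gene ctsd had 56.6, 64.6 and 70 CPM in lcat OE and 69.3, 78.4 and 60.6 CPM in CTL. It also overlapped in CPM (log2 fold change -0.12, SE 0.13, edgeR adjusted p = 0.504). In TPM both stood lower in every lcat OE library: ctsz had 36.7, 32.9 and 33.6 TPM in lcat OE, against 38.8, 39.4 and 38.2 TPM in CTL, and ctsd had 21.8, 23.8 and 22.2 TPM in lcat OE, against 26.9, 33.1 and 24.7 TPM in CTL. On either TPM scale with limma neither passed the threshold.

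The less abundant cysteine protease gene ctso had 8.51, 5.81 and 7.94 CPM in lcat OE and 13.4, 8.72 and 9.83 CPM in CTL, with no overlap. It missed the threshold (log2 fold change -0.52, SE 0.20, edgeR adjusted p = 0.0682) but passed it in 6 of 14 alternatives, among them library totals (adjusted p = 0.0409), no filter (0.0438), log2(TPM + 1) (0.0323), log2(TPM + 0.1) (0.0303) and without CTL 2 (0.0493), within 0.0303 to 0.258. The serine carboxypeptidase gene ctsa, whose product also stabilises lysosomal glycosidases in mammals, had a log2 fold change of -0.19 (SE 0.16). The aminopeptidase gene ctsh was at -0.05 (SE 0.23), and both overlapped between the groups in CPM. In TPM ctsh overlapped, while ctsa stood lower in every lcat OE library, at 3.41, 3.66 and 3.74 TPM, against 5.3, 4.62 and 4.15 TPM in CTL.

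The 5 cathepsin genes that rose were all scarce. The largest change was in ctss2.1, a gene of cathepsin S, which in mammals trims the invariant chain of MHC class II in antigen-presenting cells. It had 117, 48 and 206 counts in lcat OE, against 3, 5 and 1 counts in CTL, or 4.81, 1.92 and 9.63 CPM against 0.127, 0.202 and 0.0411 CPM. The lcat OE libraries differed widely among themselves, but the lowest stood well above every CTL library. edgeR put the log2 fold change at 5.40 (SE 0.83, edgeR adjusted p = 0.00322), and 4.73 without lcat OE 3. The gene passed the filter on low counts through the lcat OE libraries alone.

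The neighbouring gene ctss2.2 changed less. It had 5.51, 4.09 and 4.81 CPM in lcat OE, against 2.03, 2.06 and 2.18 CPM in CTL. Its log2 fold change was 1.2 (SE 0.20, edgeR adjusted p = 0.00126), past the threshold with all 13 alternatives that tested it. Of the TPM of the cathepsin S genes, ctss2.1 held 46.4%, 31.1% and 66.1% in lcat OE, against 6.11%, 8.7% and 2.04% in CTL. The third cathepsin S gene, ctss1, had 1, 5 and 3 counts in lcat OE and 0, 1 and 0 counts in CTL and was not tested.

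The gene ctsk encodes cathepsin K, the collagen-degrading protease of mammalian osteoclasts. It had 1.48, 0.962 and 2.94 CPM in lcat OE, against 0.466, 0.928 and 0.535 CPM in CTL. The groups did not overlap in CPM, but lcat OE 2 and CTL 2 nearly met, and in TPM they crossed, at 0.57 in lcat OE 2 and 0.62 in CTL 2. The log2 fold change was 1.46 (SE 0.47, edgeR adjusted p = 0.0343), and the call was lost in 6 of 13 alternatives, among them without lcat OE 3 (adjusted p = 0.147), CTL 1 (0.0968) or CTL 3 (0.109), on log2(TPM + 1) (0.0683) and on log2(TPM + 0.1) (0.0572), within 0.0118 to 0.147. In the RefSeq gene order of the assembly GRCz12tu, ctsk, ctss2.1 and ctss2.2 follow one another with no gene between them, and all 3 genes of this run rose. All of their counts were whole numbers (tolerance 0), as were those of 40 of the 41 genes described here.

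The cathepsin L gene ctsl.1 rose while ctsla fell. It had 108, 186 and 194 counts in lcat OE, against 30, 9 and 6 counts in CTL, or 4.44, 7.46 and 9.07 CPM against 1.27, 0.363 and 0.247 CPM. CTL 1 stood above the other CTL libraries, and without it the log2 fold change was 4.50, against 3.48 with all libraries (SE 0.54, edgeR adjusted p = 0.00295). At this level ctsl.1 supplied only 4.73% ± 1.09 of cathepsin L TPM in lcat OE, against 0.202% ± 0.174 in CTL (SD, n = 3 each).

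Cathepsin C, the product of ctsc, is a dipeptidyl peptidase that activates granule proteases of mammalian immune cells. The gene had 4.44, 4.13 and 4.11 CPM in lcat OE, against 2.07, 2.95 and 1.69 CPM in CTL, with no overlap. The log2 fold change was 0.92 (SE 0.23, edgeR adjusted p = 0.0118), and the call was lost on log2(TPM + 1) (adjusted p = 0.0644) and log2(TPM + 0.1) (0.0641), within 0.00461 to 0.0644 over 13 alternatives. The remaining gene, ctsbb, a second cathepsin B gene, had 1, 0 and 0 counts in lcat OE and 4, 0 and 1 counts in CTL and was not tested.

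**Figure D2:**
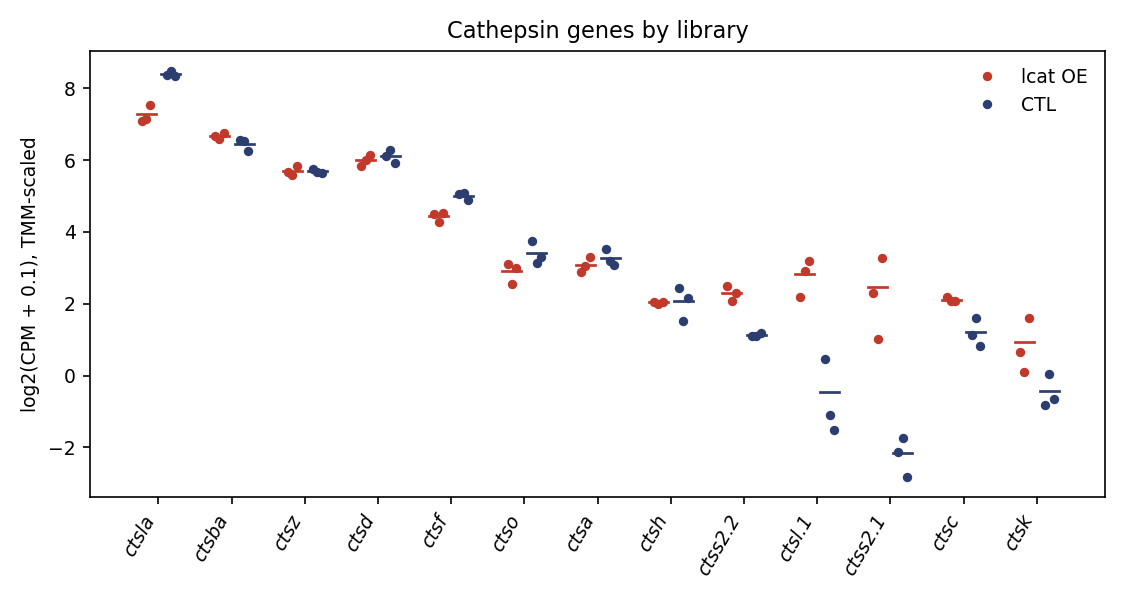
Level of the 13 tested cathepsin genes in each library as log2(CPM + 0.1), lcat OE (red) left of CTL (blue), ordered by mean TPM; points are libraries (3 per group) and bars the logarithm of the group mean. The most abundant gene, ctsla, is lower in lcat OE at 137 to 187 CPM against 327 to 357 CPM in CTL, while the genes higher in lcat OE stand at the scarce end.

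The changes altered the order of the scarce cathepsins on the TPM scale. In both groups the first 5 places were held by ctsla, ctsba, ctsz, ctsd and ctsf. In lcat OE the next places went to ctsl.1 at 4.96 ± 1.3 TPM, ctss2.1 at 4.03 ± 2.53 TPM, ctso at 3.99 ± 0.884 TPM, ctss2.2 at 3.71 ± 0.745 TPM and ctsa at 3.60 ± 0.172 TPM (SD, n = 3 each), neighbours that lay within each other's spread. In CTL ctso had 6.41 ± 1.2 TPM and ctsa 4.69 ± 0.578 TPM, while ctsl.1 had 0.493 ± 0.399 TPM and ctss2.1 0.11 ± 0.07 TPM (SD, n = 3 each). The 5 genes that rose summed to 14.2, 12 and 18.2 TPM in lcat OE and 3.64, 3.91 and 3.03 TPM in CTL. These 5 were taken by their calls in the same libraries, so this sum restates the calls and is no separate result.

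Cathepsins S, C and K are known from macrophages and osteoclasts, and markers of these cells were read in the same libraries. Of 23 macrophage markers 11 were tested, with 5 higher and 2 lower in lcat OE, beside 16.3% of all genes tested in each direction. Their summed level was 32.6 to 46.5 CPM in lcat OE and 23 to 34.5 CPM in CTL, and 0 markers in lcat OE and 3 in CTL had no count. The macrophage marker mpeg1.1 did not pass the filter on low counts and was not tested. It had 8, 4 and 20 counts in lcat OE and 3, 1 and 0 counts in CTL. The marker marco passed the filter through the lcat OE libraries alone. It had 19, 13 and 39 counts in lcat OE and 3, 2 and 3 in CTL. The markers csf1ra and irf8 were lower instead: csf1ra had 2, 5 and 17 counts in lcat OE and 59, 230 and 79 in CTL, and irf8 had 22, 3 and 11 counts in lcat OE and 52, 41 and 37 in CTL. In lcat OE, mpeg1.1, marco, ctss2.1 and ctsk were all highest in library 3 and lowest in library 2. Other genes had another order. The genes ctss2.2 and ctsc were highest in library 1, as was irf8. Both ctsl.1 and csf1ra were highest in library 3 but lowest in library 1. An order over 3 libraries was not tested. The 4 markers mpeg1.1, marco, csf1ra and irf8 were singled out from the 23 after their values were seen. The library order of the other macrophage markers is not given here.

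Of 7 osteoclast markers 4 were tested and 0 were called by edgeR; at an unadjusted p under 0.05, 0 were higher and 2 lower, and DESeq2, without the filter, called 1 higher and 0 lower of 6. Their summed level was 2.53 to 4.56 CPM in lcat OE and 3.81 to 6.38 CPM in CTL. Of 8 neutrophil markers tested 1 was higher and 3 lower, at 234 to 405 CPM in lcat OE and 434 to 570 CPM in CTL. Of 4 markers of lysosome-rich enterocytes tested 2 were higher and 0 lower (0 lower also at an unadjusted p under 0.05 and by DESeq2), at 124 to 179 CPM in lcat OE and 84.3 to 97.2 CPM in CTL. Epidermal markers moved in the same direction as these cathepsins and were far more abundant: of 21 tested 14 were higher and 4 lower, and they summed to 10273 to 15313 CPM in lcat OE and 831 to 1455 CPM in CTL. Over all genes tested, edgeR called 16.3% higher and 16.3% lower. The part of these cell types in the cathepsin changes was not tested.

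Called changes among the pump genes ran in both directions and were small for the abundant subunits. The c subunit gene atp6v0ca and the C subunit gene atp6v1c1b rose, and the a subunit genes atp6v0a1a and atp6v0a1b and the second c subunit gene atp6v0cb fell. Smaller rises were called in atp6v0d1, atp6v1ba and atp6v1f. Of 26 pump genes 22 were tested, of which 5 rose and 3 fell, or 36.4%, beside 32.6% of all genes tested. This share is close to that of all genes. The 22 tested genes include atp6v0a1b, which passed the filter through the CTL libraries alone. In CPM 9 stood above and 5 below in every lcat OE library, beside 23.6% and 24.1% of all genes tested. In TPM 3 stood above and 5 below, beside 14% and 33.1% of all genes tested. The median log2 fold change was 0.16, beside -0.02 over all genes tested. The split was 2 higher and 3 lower with library totals as the scaling, and 1 higher and 4 lower on deposited TPM with limma.

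The a subunit anchors the pump and forms the proton path with the c ring. The gene atp6v0a1a, of the a1 isoform that in mammals is best known from neurons, was the most abundant a subunit gene in these libraries among those matched by symbol. It had 13.9, 13 and 15.2 CPM in lcat OE, against 25.8, 19.9 and 19.5 CPM in CTL. All lcat OE libraries stood below all CTL libraries. For atp6v0a1a the log2 fold change was -0.63 (SE 0.14, edgeR adjusted p = 0.00595), past the threshold with all 14 alternatives.

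Its paralog atp6v0a1b was near the detection limit, with 1, 0 and 8 counts in lcat OE and 17, 18 and 20 counts in CTL. It passed the filter through the CTL libraries alone. The log2 fold change was -2.49 (SE 0.80, edgeR adjusted p = 0.0351), but -4.88 without lcat OE 3 and -1.88 without lcat OE 2. The call was lost without lcat OE 1 (adjusted p = 0.113), lcat OE 2 (0.0916), CTL 1 (0.0701), CTL 2 (0.0833) or CTL 3 (0.0986), within 0.00339 to 0.113 over 13 alternatives.

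The a2 isoform genes showed no called change. The gene atp6v0a2b had 3.5, 2.89 and 2.8 CPM in lcat OE and 3.01, 3.87 and 3.13 CPM in CTL (log2 fold change -0.12, SE 0.20). The gene atp6v0a2a had 0.699, 0.762 and 0.234 CPM in lcat OE and 0.508, 0.484 and 0.576 CPM in CTL (0.13, SE 0.49). Both overlapped between the groups.

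Summed over the 4 a subunit genes, the level was 4.64, 4.09 and 3.93 TPM in lcat OE and 7.74, 7.01 and 6.45 TPM in CTL. The a3 isoform carries another symbol, tcirg1, and was outside the symbol rule: tcirg1b had 3.89 ± 0.723 TPM in lcat OE and 4.71 ± 0.956 TPM in CTL (SD, n = 3 each; log2 fold change -0.09, edgeR adjusted p = 0.671). The mean of atp6v0a1a was 3.31 TPM in lcat OE, below that of tcirg1b, and 5.81 TPM in CTL, above it. With both tcirg1 genes added, the a subunit sum was 8.94, 8.49 and 7.07 TPM in lcat OE and 12.2, 13 and 10.5 TPM in CTL, again without overlap.

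The c subunit, which builds the rotating proton ring, differed in the other direction. The gene atp6v0ca had 78.8, 63.4 and 73.4 CPM in lcat OE, against 52.1, 51.1 and 46.7 CPM in CTL. The groups did not overlap, and the log2 fold change was 0.52 (SE 0.12, edgeR adjusted p = 0.0067). The call held without each library and was lost on log2(TPM + 1) (adjusted p = 0.0854) and log2(TPM + 0.1) (0.0823), within 0.00139 to 0.0854 over 14 alternatives. Its scarce paralog atp6v0cb had 0.164, 0.561 and 0.514 CPM in lcat OE, against 1.02, 2.02 and 0.987 CPM in CTL. The log2 fold change of atp6v0cb was -1.69 (SE 0.50, edgeR adjusted p = 0.0241), lost without lcat OE 1 (adjusted p = 0.0677) or CTL 2 (0.118), within 0.01 to 0.118 over 13 alternatives.

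The c and a subunits were also set against each other on the TPM scale. Since atp6v0ca was called higher and atp6v0a1a lower, their ratio restates those calls and is no separate result. The ratios leave out the tcirg1 genes, which would lower them in both groups. The sum of the c subunit genes was 10.4, 9.08 and 9.45 times that of the 4 a subunit genes in lcat OE, and 4.18, 5.0 and 4.75 times in CTL. Of c subunit TPM, atp6v0ca held 99.5% ± 0.307 in lcat OE and 97.7% ± 0.961 in CTL (SD, n = 3 each).

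Summed marker levels of neurons and photoreceptors, exocrine pancreas, pigment cells and skeletal muscle were lower in every lcat OE library, as was that of neutrophils, given above. The 3 pump genes called lower, atp6v0a1a, atp6v0a1b and atp6v0cb, are set beside them. Both groups were put together by their lower values, so the shared direction is no separate result. Of 16 neuron and photoreceptor markers tested 0 were higher and 12 lower, with a summed level of 8.18 to 9.9 CPM in lcat OE and 53.1 to 79.2 CPM in CTL; 0 of 20 markers in lcat OE and 1 in CTL had no count. DESeq2 also called 0 higher and 12 lower, and 0 were higher at an unadjusted p under 0.05. Pancreas markers (7 of 16 tested lower) summed to 48.7 to 291 CPM in lcat OE and 750.2 to 1660 CPM in CTL. Pigment cell markers (6 of 10 lower) summed to 173 to 210 CPM in lcat OE and 325 to 530 CPM in CTL, and muscle markers (6 of 14 lower) to 16 to 24.4 CPM in lcat OE and 62.2 to 301 CPM in CTL. Over all genes tested, edgeR called 16.3% higher and 16.3% lower. The part of these cell types in the falls of the 3 pump genes was not tested.

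Of 9 V0 genes tested 2 rose and 3 fell, or 55.6%, beside 32.6% of all genes tested. The 3 include atp6v0a1b, which passed the filter through the CTL libraries alone. The other V0 subunits showed small differences. The d subunit gene atp6v0d1, which couples the ring to the central stalk, had 38.2, 36.2 and 33.8 CPM in lcat OE, against 29.3, 28.8 and 28.9 CPM in CTL (log2 fold change 0.32, SE 0.11, edgeR adjusted p = 0.0409). The most abundant pump gene, atp6v0e1, which encodes a small membrane subunit, had 80.6, 66.9 and 79.6 CPM in lcat OE and 61.6, 63.9 and 56.4 CPM in CTL. It did not overlap in CPM but missed the threshold (0.32, SE 0.12, edgeR adjusted p = 0.0571), which it passed with DESeq2 size factors (adjusted p = 0.0499) and without lcat OE 2 (0.0309, within 0.0309 to 0.384 over 14 alternatives). The proteolipid gene atp6v0b, a relative of the c subunit, had 20.6, 19.6 and 20.4 CPM in lcat OE and 23.6, 24.6 and 24.3 CPM in CTL. Its log2 fold change of -0.26 (SE 0.10, edgeR adjusted p = 0.079) passed on log2(TPM + 1) (adjusted p = 0.033), on log2(TPM + 0.1) (0.0321) and with at least 5 CPM in 3 libraries (0.0438), within 0.0321 to 0.225 over 14 alternatives.

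**Figure D3:**
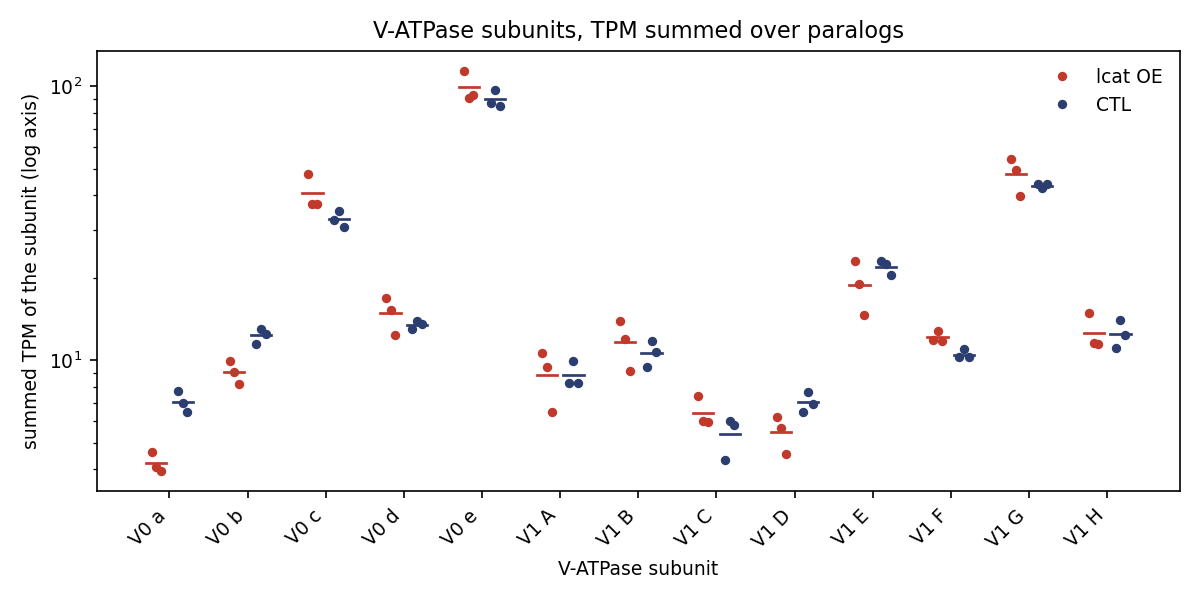
TPM summed over the paralogs of each V-ATPase subunit in each library on a log axis, lcat OE (red) left of CTL (blue); points are libraries (3 per group) and bars group means. The a subunit, without the tcirg1 genes, sums to 3.93 to 4.64 TPM in lcat OE and 6.45 to 7.74 TPM in CTL. The c subunit sums to 37.1 to 48.0 TPM in lcat OE and 30.7 to 35.0 TPM in CTL.

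In the V1 sector 3 of 11 tested genes rose and 0 fell by edgeR, or 27.3%, beside 32.6% of all genes tested. This share is no higher than that of all genes. At an unadjusted p under 0.05 or by DESeq2, 0 were lower. The catalytic A subunit binds and hydrolyses ATP. Its main gene atp6v1aa had 20.6, 19.4 and 17.3 CPM in lcat OE and 17.9, 20.7 and 17.1 CPM in CTL (log2 fold change 0.04, SE 0.12, edgeR adjusted p = 0.829). The second A gene, atp6v1ab, had 9.25, 8.34 and 4.86 CPM in lcat OE and 5.25, 4.88 and 4.98 CPM in CTL. Here lcat OE 3 stood with the CTL libraries (log2 fold change 0.57, SE 0.22, edgeR adjusted p = 0.0709), and without it the gene passed (0.83, adjusted p = 0.00382, the lowest of 14 alternatives, up to 0.412), as it did with no filter (0.0369).

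The B subunit alternates with A in the V1 head. Its main gene here, atp6v1ba, had 36, 33 and 28.6 CPM in lcat OE, against 24.4, 26.2 and 25.5 CPM in CTL (log2 fold change 0.36, SE 0.12, edgeR adjusted p = 0.0391). The scarce atp6v1b2 had 0.864, 0.441 and 0.748 CPM in lcat OE and 0.55, 2.3 and 1.48 CPM in CTL (-1.08, SE 0.50, edgeR adjusted p = 0.129). It passed without CTL 1 (adjusted p = 0.0228, within 0.0228 to 0.46 over 13 alternatives). Of B subunit TPM atp6v1ba held 97.9% ± 0.704 in lcat OE and 94.6% ± 3.02 in CTL (SD, n = 3 each), and the groups overlapped.

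The C subunit bridges the sectors and is released when the pump comes apart. Its scarcer gene atp6v1c1b had 2.88, 2.37 and 3.27 CPM in lcat OE, against 1.06, 1.82 and 0.905 CPM in CTL. This was the largest called rise among the pump genes (log2 fold change 1.16, SE 0.31, edgeR adjusted p = 0.0139), and it was lost without CTL 3 (adjusted p = 0.0544, within 0.00456 to 0.0544 over 13 alternatives). The main C gene atp6v1c1a had 11.5, 9.82 and 10.7 CPM in lcat OE and 7.24, 8.88 and 9.75 CPM in CTL, and missed the threshold (0.31, SE 0.15, edgeR adjusted p = 0.14). The share of C subunit TPM held by atp6v1c1b was 20% ± 2.06 in lcat OE and 12.1% ± 4.12 in CTL (SD, n = 3 each), without overlap. The gene atp6v1c2 had 0 counts in lcat OE and 1 in CTL and was not tested.

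Of the stalk genes, atp6v1f (rotor) had 11, 12.4 and 13.1 CPM in lcat OE, against 9.53, 9.4 and 8.97 CPM in CTL (log2 fold change 0.39, SE 0.13, edgeR adjusted p = 0.0384). The calls of atp6v0d1, atp6v1ba and atp6v1f rest on few settings: each passed in 1 of the 6 fits that left out a library, atp6v0d1 and atp6v1ba without lcat OE 3 (adjusted p = 0.0212 and 0.0108) and atp6v1f without lcat OE 1 (0.0342), while the other 5 fits gave 0.0832 to 0.125, 0.0915 to 0.119 and 0.0717 to 0.114. Over 14 alternatives their adjusted p lay between 0.0212 and 0.526, 0.0108 and 0.493, and 0.0331 and 0.215. The second most abundant pump gene atp6v1g1 (peripheral stalk) had 49.2, 47 and 43.7 CPM in lcat OE and 40, 35.8 and 37.6 CPM in CTL, without overlap in CPM. It missed the threshold (0.30, SE 0.11, edgeR adjusted p = 0.0521) and passed with DESeq2 size factors (adjusted p = 0.0464), with at least 5 CPM in 3 libraries (0.0446) and without lcat OE 3 (0.026), within 0.026 to 0.487 over 14 alternatives. In TPM atp6v0d1, atp6v0e1, atp6v1ba and atp6v1g1 all overlapped between the groups.

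The peripheral stalk gene atp6v1e1b (-0.06, SE 0.13), the rotor gene atp6v1d (-0.18, SE 0.12) and the regulatory subunit gene atp6v1h (0.20, SE 0.12) did not pass. A second E gene listed without a subunit symbol and named atp6v1e1a in RefSeq lay outside the symbol rule, at 4.1 ± 0.262 CPM in lcat OE and 4.27 ± 0.504 CPM in CTL (SD, n = 3 each).

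Accessory proteins help assemble the pump. The gene atp6ap1b had 23.4, 23.9 and 22.5 CPM in lcat OE and 18.5, 21.7 and 19.4 CPM in CTL (log2 fold change 0.23, SE 0.11, edgeR adjusted p = 0.144). The gene atp6ap2, which encodes the prorenin receptor, had 27.2, 24.7 and 27.6 CPM in lcat OE and 25.4, 25.3 and 22.3 CPM in CTL (0.12, SE 0.11, edgeR adjusted p = 0.436). The genes atp6ap1a, atp6ap1la and atp6ap1lb had 0 to 11 counts per library and were not tested, and atp6ap1lb had 0 counts in all lcat OE libraries against 2, 2 and 9 counts in CTL.

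**Figure D4:**
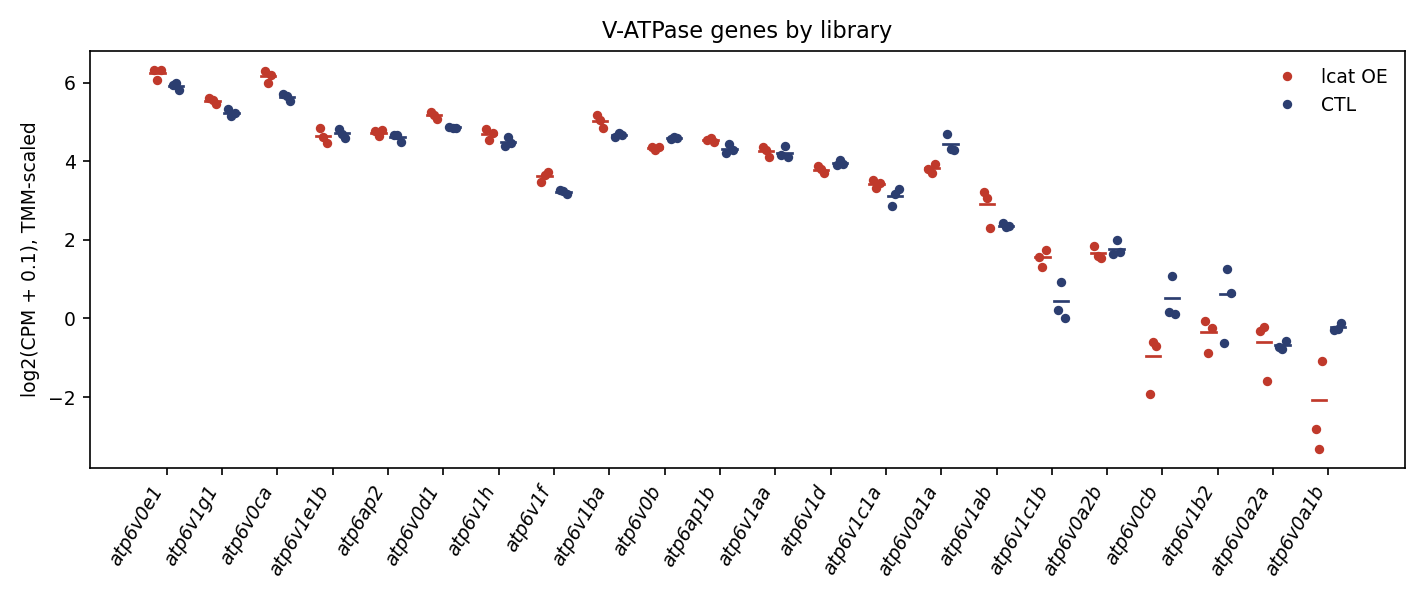
Level of the 22 tested pump and accessory genes in each library as log2(CPM + 0.1), lcat OE (red) left of CTL (blue), ordered by mean TPM; points are libraries (3 per group) and bars the logarithm of the group mean. Most abundant genes lie close together between the groups, atp6v0ca is higher in lcat OE at 63.4 to 78.8 CPM against 46.7 to 52.1 CPM in CTL, and the scarce atp6v0cb and atp6v0a1b are lower in lcat OE.

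In summed TPM the pump as a whole overlapped between the groups. All 26 genes summed to 361, 305 and 280 TPM in lcat OE and 291, 318 and 289 TPM in CTL, a ratio of group means of 1.05. On FPKM the ratio was 1.13, and the groups overlapped as well. In CPM, which was not summed, 9 of the 22 tested genes stood above and 5 below in every lcat OE library. The overlap therefore holds for the TPM and FPKM scales only. The V1 sector summed to 124 ± 19.2 TPM in lcat OE and 120.3 ± 4.53 TPM in CTL, and the V0 sector to 168 ± 22 TPM in lcat OE and 155 ± 9.69 TPM in CTL (SD, n = 3 each). The cathepsin sum was 0.717, 0.797 and 0.935 times the pump sum in lcat OE, against 1.38, 1.4 and 1.35 times in CTL. This ratio restates the lower cathepsin sum, which lay mostly in ctsla, and is no separate result. Without ctsla the cathepsin sum was 155 ± 7.07 TPM in lcat OE and 162 ± 12.3 TPM in CTL (SD, n = 3 each), with overlap.

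Proton pumps are also abundant in ionocytes, skin cells that exchange ions and acid. Of 18 ionocyte markers 7 were tested, with 2 higher and 1 lower in lcat OE, beside 16.3% of all genes tested in each direction. DESeq2, without the filter, called 6 higher and 1 lower of 14. The marker rhcgl1, an ammonium transporter gene, had 1397, 2272 and 1960 counts in lcat OE and 5, 18 and 22 counts in CTL. The defining transcription factor genes were at or near 0: foxi3a had 6, 10 and 1 counts in lcat OE and 0, 0 and 0 in CTL, and foxi3b had 2, 2 and 1 counts in lcat OE and 2, 0 and 0 in CTL. The summed marker level was 138 to 180.1 CPM in lcat OE and 112 to 121.1 CPM in CTL. The gene rhcgl1 was then set aside, a choice made after its values were seen. Without rhcgl1 the other 17 markers summed to 80.6, 89 and 80.7 CPM in lcat OE and 119.8, 111.1 and 120.2 CPM in CTL, lower in every lcat OE library. A sum follows its most abundant markers. The calls of single markers were more often higher than lower, but many of the 18 were not tested or not called. The part of ionocytes in the pump values was not tested.

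**Figure D5:**
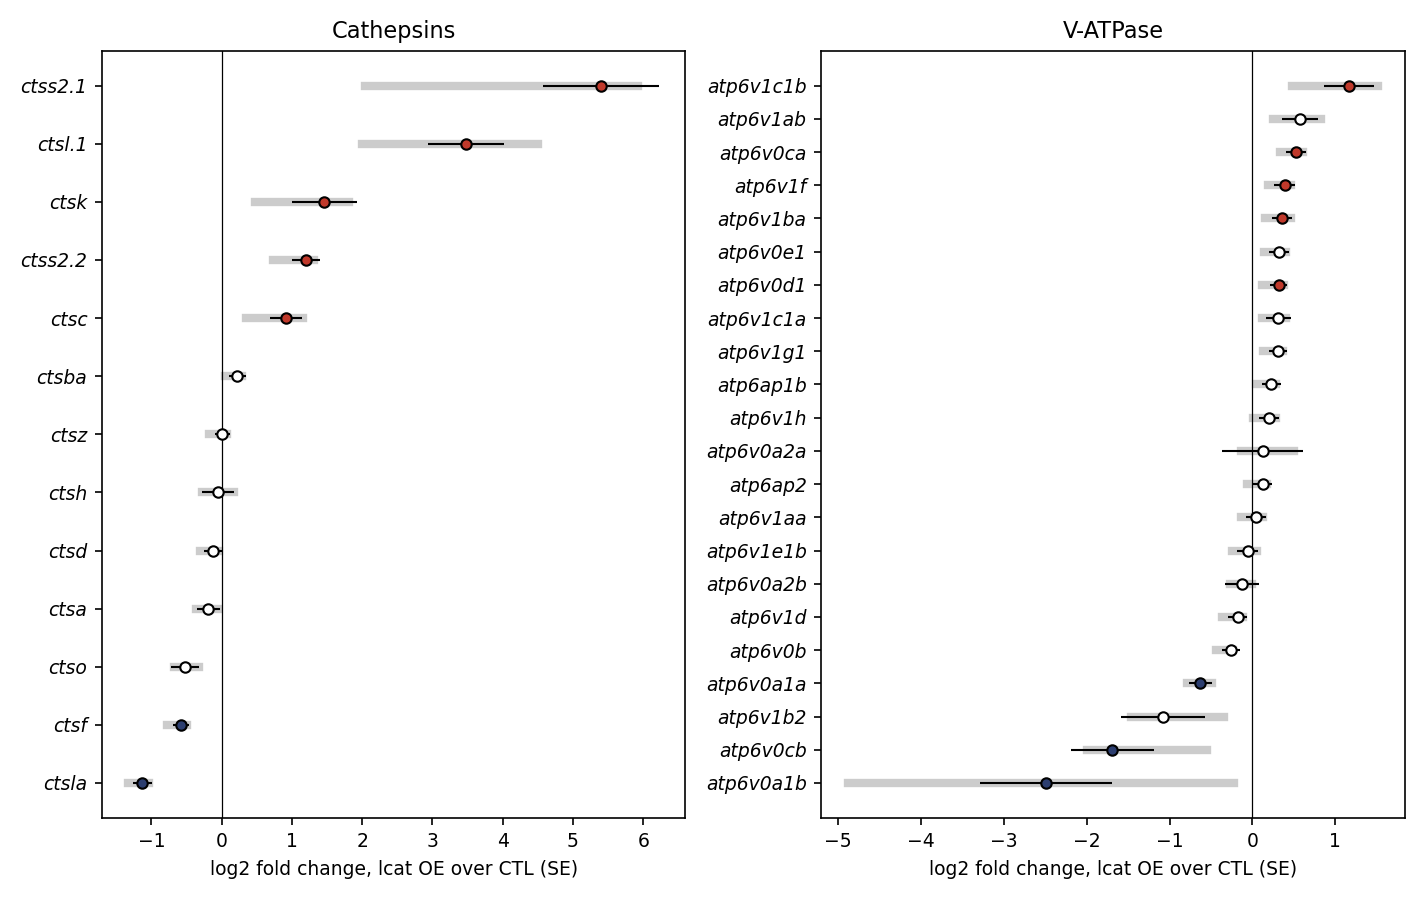
Log2 fold change (lcat OE over CTL) of the 13 cathepsin and 22 pump genes tested; points are edgeR estimates with SE, filled where the adjusted p passed 0.05 (red higher, blue lower in lcat OE), and grey bars span the alternative settings. Among cathepsins ctss2.1 (5.40) and ctsl.1 (3.48) stand far to the right and ctsla (-1.13) to the left, while pump genes lie between -2.49 and 1.16.

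Other lysosomal genes and protease inhibitor genes, from lists of 141 matched genes, were called in both directions. The inhibitors make up 13 of the matched and 8 of the tested genes. Of 128 tested, 14 rose and 29 fell, or 33.6%, beside 32.6% of all genes tested, with a median log2 fold change of -0.10. On deposited TPM with limma 8 rose and 36 fell. Among 41 tested hydrolases 4 rose and 11 fell, while of all genes tested 16.3% were called higher and 16.3% lower. The arylsulfatase A gene arsa had 0.76, 0.9 and 0.85 TPM in lcat OE, against 6.36, 6.64 and 4.96 TPM in CTL (log2 fold change -2.64, SE 0.19, edgeR adjusted p = 8.52e-06). The acid sphingomyelinase gene smpd1 fell (-0.93, SE 0.14), and the fucosidase gene fuca1.1 rose (0.96, SE 0.13). The most abundant hydrolase gene, pla2g15, encodes a lysosomal phospholipase related to Lcat. It had 56.6, 47.3 and 54.3 TPM in lcat OE, against 97.8, 97.8 and 111 TPM in CTL (-0.76, SE 0.13, edgeR adjusted p = 0.00143).

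Among 30 lysosomal membrane and transport genes 3 rose and 9 fell. For this list and the sorting genes, the share of all genes tested was 16.3% in each direction. Of these, tmem106ba (-1.01, SE 0.15) and the receptor gene scarb2a (-0.81, SE 0.15) fell, and mfsd1 rose (1.03, SE 0.18). The most abundant, npc2, encodes a cholesterol carrier of the lysosomal lumen and rose to 232, 201 and 187 TPM in lcat OE, against 163, 167 and 148 TPM in CTL (0.55, SE 0.11, edgeR adjusted p = 0.00354). Among 22 sorting genes 1 rose and 2 fell: the retromer gene vps29 rose (0.45, SE 0.11), and the sortilin gene sort1a (-0.88, SE 0.17) and the tethering gene vps33a (-0.74, SE 0.25) fell. The vps33a call was lost in 5 of 6 fits that left out a library.

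Of 16 regulators 2 rose and 4 fell, beside 16.3% of all genes tested in each direction. The gene tfe3a, of a MiT/TFE transcription factor, had 2.31, 2.02 and 1.88 TPM in lcat OE, against 5.23, 5.92 and 6.67 TPM in CTL (log2 fold change -1.31, SE 0.14, edgeR adjusted p = 0.000112). The Rag GTPase gene rragca, whose product works at the lysosome surface in mTORC1 signalling, had 3.25, 3.6 and 2.97 TPM in lcat OE, against 11, 11.6 and 9.43 TPM in CTL (-1.52, SE 0.15, edgeR adjusted p = 5.09e-05). Its partner gene rraga rose (0.56, SE 0.12). The most abundant regulator gene, lamtor5, did not pass (0.22, SE 0.18).

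Of 11 further pump subunits and regulators 2 rose and 2 fell, beside 16.3% of all genes tested in each direction. The gene oxr1b, of a TLDc-domain protein, had 12.6, 21.3 and 11.9 TPM in lcat OE, against 0.27, 1.01 and 0.41 TPM in CTL (log2 fold change 5.56, SE 0.52, edgeR adjusted p = 0.00102). The assembly factor gene tmem199 fell (-0.93, SE 0.23). The fall of wdr7 (-0.55, SE 0.18) was lost in 5 and the rise of the assembly factor gene vma21 (0.39, SE 0.13) in all 6 fits that left out a library. Of 8 protease inhibitor genes tested 2 rose and 1 fell, again beside 16.3% of all genes tested in each direction. Whether their products act on the cathepsins described here was not tested. Both serpinb1l3 (1.44, SE 0.30) and the cystatin gene cst14a.1 (1.26, SE 0.33) rose, while spink4 fell (-1.47, SE 0.48), the last lost in 3 of 6 such fits. The abundant cystatin gene cst3 had 66.5, 56.3 and 84.1 TPM in lcat OE and 109.7, 111 and 115 TPM in CTL, but missed the threshold (-0.50, SE 0.19, edgeR adjusted p = 0.0678).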

How the data were processed

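Poly(A) RNA of sorted zebrafish hepatocytes was sequenced in 6 samples, 3 lcat OE and 3 CTL, grouped by their titles. The authors deposited 1 table of 23745 genes. Its read count columns hold expected counts, 10.8% to 11.8% of them not whole, and the deposited TPM and FPKM values are scaled by transcript length and depth. Per the submitters' processing notes, GRCz11 was used with RSEM 1.3.1, HISAT, DESeq2 1.4.5 and Bowtie2 2.3.4.3, whose roles are not given. No strand-specific step is stated, so antisense reads are not told apart. The 14 normalised-count and average columns were not used.

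Expected counts were rounded and fitted by group alone in R 4.3.3 using edgeR 4.0.16, with TMM factors, filterByExpr and the robust quasi-likelihood F test. SE is the absolute log2 fold change over the square root of F. Alternatives were other scalings and filters, a replicate block, DESeq2 1.42.0, limma 3.58.1 on log2(TPM + 1) and log2(TPM + 0.1), and leaving out each library; sums were repeated on FPKM. Scripts were tested on simulated data. PCR reads carry no molecular identifiers. Of 332 listed names 322 were matched by symbol or RefSeq name. Members, lists and named genes were chosen with earlier results of these data known: members past the threshold, the 5 most abundant of each family and their paralogs get values, and of each other list up to 3 called genes with the smallest p and the most abundant. No sequences of these genes were used here.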

Additional observations from a re-analysis of the deposited data

How the results depend on the processing

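The same-numbered libraries did not deviate together (correlations -0.0466, -0.0294 and 0.0163), so the numbers were not taken as pairs. With the replicate block 2040 genes were higher and 2152 lower, against 2293 and 2303 without it; 4 cathepsin genes rose and 3 fell, and 2 pump genes rose and 3 fell. In that fit ctsk (adjusted p = 0.0637), atp6v0d1 (0.077), atp6v1f (0.0691) and atp6v1ba (0.0688) lost their calls and ctso gained one (0.0305), the only members whose call it changed. Calls of higher and lower genes were 1335 and 1369 with at least 5 CPM in 3 libraries, and 1344 were higher on log2(TPM + 1) and 1367 on log2(TPM + 0.1). Of the called genes 49.9% were higher with TMM, 38.8% with library totals and 30.8% on TPM, and the median of all genes was -0.11 with library totals and -0.18 on log2(TPM + 0.1).

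Cathepsins called higher were 0 with at least 5 CPM in 3 libraries, which left 7 of them tested, and 3 on either TPM scale. The 5 CPM filter left out all 5 cathepsin genes that rose, so the 0 and the median under it follow from that. The cathepsin median was 0.01 and turned to -0.088 with library totals, -0.21 with at least 5 CPM, -0.15 on log2(TPM + 1) and -0.18 on log2(TPM + 0.1). It lay between -0.035 and 0.17 without each library. Pump genes called higher were 2 with library totals and with DESeq2, 1 on either TPM scale, and 1 to 6 without each library; those called lower were 1 to 3 without each library. The pump median was 0.082 with library totals, 0.25 with at least 5 CPM, 0.0013 on log2(TPM + 1), -0.025 on log2(TPM + 0.1), and 0.13 to 0.24 without each library. The ratio of summed cathepsin TPM was 0.956 without ctsla. Of the other lysosomal and protease inhibitor genes, 8 were called higher on either TPM scale. Those called lower were 17 with at least 5 CPM and 17 to 27 without each library.

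Of 478 values for single members under the alternatives, 390 kept direction and side of the threshold, 50 lost the call, 17 gained it and 21 changed sign, all of the last in genes that missed the threshold. These were atp6v1e1b (0.052 without lcat OE 3, 0.016 without CTL 1), atp6ap2 (-0.057 and -0.060 on TPM), ctsh (-0.28 to 0.17 without each library), atp6v1aa (-0.045 with library totals, -0.12 and -0.14 on TPM, -0.0034 without lcat OE 1, -0.022 without CTL 3), atp6v0a2a (-0.0070 and -0.085 on TPM, -0.14 to 0.50 without each library) and ctsz (-0.088 with library totals, -0.0083 with at least 5 CPM, -0.17 and -0.18 on TPM, -0.035 to 0.069 without each library). The cause of these shifts was not tested. With a pseudocount of 1 the rises of ctss2.1 and ctsl.1 came to 2.04 and 2.0. Counts of 10 or fewer limit atp6v0a1b, atp6v0cb, ctss2.1 and ctsl.1.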
